A study of Mus musculus with 36 samples.

Results

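The 10 genes described here encode the chains from which basement membranes are built: the laminin chains Lama2, Lama4, Lamb1, Lamb2 and Lamc1, the type IV collagen chains Col4a1 and Col4a2, the nidogens Nid1 and Nid2, and the perlecan core protein Hspg2. They were chosen by name, on the day course of their RNA in differentiating brown pre-adipocytes, in which Lama4 went from almost no counts at day 0 to high counts at day 6. They are 10 of the 55536 genes counted, and all 10 are among the 16723 genes that passed the filter on low counts. Because the day course chose them, their changes between days are given as a description with no test, and tests were kept for genotype and clone, which the choice did not use.

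The study asked whether phosphorylation of RXRα on serine 22, which insulin induces, is needed for the transcriptome of differentiating brown adipocytes. RNA was sequenced from 36 libraries of mouse brown pre-adipocyte lines. Each of 2 Rxra-/- clones, made with CRISPR/Cas9 from a clonal wild-type brown pre-adipocyte line and named 48 and 66, received either wild-type Rxra (RxraWT) or the S22A mutant that cannot be phosphorylated at that site (RxraSA) by retrovirus from a pBabe Hygro vector. Libraries were made at day 0, before induction, and at day 2 and day 6, with 3 libraries for each clone, genotype and day. Insulin and T3 were in the medium on all days, including the growth to confluence that ended at day 0. Dexamethasone, IBMX and indomethacin were added from day 0 until day 2. Every group therefore carried the Rxra deletion and a retroviral Rxra, and no unedited cells were among these libraries. Each clone is 1 clonal isolate and was sequenced in its own library pool, so clone and pool cannot be told apart. The design text calls the 3 libraries of a group technical replicates, whereas the study's methods describe the cultures as independent replicates, so p-values measure only the spread between these libraries, which may be technical.

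A basement membrane is a thin sheet of extracellular matrix that surrounds each mature fat cell and also underlies endothelium and epithelium. Laminins are trimers of an alpha, a beta and a gamma chain that polymerize at the cell surface, where the alpha chain carries the main sites for integrins and dystroglycan. Type IV collagen, whose commonest trimer joins COL4A1 and COL4A2 chains, forms a covalent network beneath the laminin, and nidogens and perlecan bridge the networks.

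Total counts ran from 11351078 to 24349263 per library. Rxra had between 1851 and 11489 counts in every library, which does not separate the introduced alleles. The adipocyte markers (Plin1, Fabp4, Adipoq, Cidec, Lipe and Pparg) had a median sum of 148 CPM (read counts scaled to library size with TMM factors) at day 0, 4326 at day 2 and 7782 at day 6. The markers of the brown pre-adipocyte label were partly present. Pre-adipocyte markers (Pdgfra, Ly6a, Cd34 and Dlk1) summed to 58.3 to 247 CPM at day 0. Among these Pdgfra had a median of 88.2 CPM, and Dlk1 had at most 1 count in any library. Brown adipocyte markers (Ucp1, Cidea, Prdm16, Ppargc1a and Ebf2) summed to 10.7 to 46.2 CPM at day 0, 17.1 to 101 at day 2 and 11.7 to 93.0 at day 6. Ucp1 had at most 5 counts in any library. All 7 endothelial markers together summed to at most 2.43 CPM in any library, with Cdh5, Kdr and Emcn at 3 counts or fewer throughout, and leukocyte markers to at most 11.5 CPM. Mural markers summed to 131 to 424 CPM at day 0, 26.8 to 81.0 at day 2 and 43.1 to 222 at day 6, with Kcnj8 and Abcc9 at 3 counts or fewer, and their day 0 median of 199 CPM was above that of the adipocyte markers. In these bulk samples fewer cells of a type and less RNA per cell cannot be told apart. Libraries that stood apart were replicate 2 of clone 66 at day 0, in both genotypes, the RxraSA library of clone 48 replicate 1 at day 0, and, at day 6, the libraries numbered 3. Where a result rested on those of day 0 it is given with and without them. The libraries numbered 3 were left out only for 1 clone at a time, not as a set.

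Col4a1 and Col4a2 are shown by sequence because they are neighbours whose starts face each other. Col4a1 lies on the minus strand of chr8:11198423-11312826 and Col4a2 on the plus strand of chr8:11312805-11449287 (GRCm38, GENCODE M21), so the gene models overlap by 22 bases. The RefSeq promoter windows (GRCm38.p6), which run from 250 bases before to 50 bases after each start, are chr8:11312777-11313076 on the minus strand and chr8:11312555-11312854 on the plus strand. The capitals mark the 78 bases that the windows share, read on opposite strands.
Col4a1: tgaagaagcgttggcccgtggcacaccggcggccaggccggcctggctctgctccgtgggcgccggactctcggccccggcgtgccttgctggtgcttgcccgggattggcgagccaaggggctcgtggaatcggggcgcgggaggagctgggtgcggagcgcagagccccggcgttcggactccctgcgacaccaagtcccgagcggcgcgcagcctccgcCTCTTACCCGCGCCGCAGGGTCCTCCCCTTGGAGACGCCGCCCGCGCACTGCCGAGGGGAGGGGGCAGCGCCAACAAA
Col4a2: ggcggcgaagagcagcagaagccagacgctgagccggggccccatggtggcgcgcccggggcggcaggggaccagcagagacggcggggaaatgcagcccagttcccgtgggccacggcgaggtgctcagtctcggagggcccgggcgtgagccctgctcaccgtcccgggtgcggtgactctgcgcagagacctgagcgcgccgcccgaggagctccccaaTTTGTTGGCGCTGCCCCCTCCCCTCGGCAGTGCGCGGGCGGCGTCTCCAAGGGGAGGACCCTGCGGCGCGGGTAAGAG
Lamb1 and Lamb2 are shown because these beta chains went opposite ways over the days. Their windows are chr12:31265043-31265342 and chr9:108479612-108479911, both on the plus strand, and here the capitals mark GGGCGG and CCAAT on either strand.
Lamb1: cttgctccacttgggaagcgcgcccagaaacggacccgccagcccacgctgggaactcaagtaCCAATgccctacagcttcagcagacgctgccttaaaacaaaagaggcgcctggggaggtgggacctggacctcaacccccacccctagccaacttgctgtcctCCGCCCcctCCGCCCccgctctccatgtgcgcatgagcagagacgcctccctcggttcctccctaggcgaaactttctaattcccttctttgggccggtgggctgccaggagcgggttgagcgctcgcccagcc
Lamb2: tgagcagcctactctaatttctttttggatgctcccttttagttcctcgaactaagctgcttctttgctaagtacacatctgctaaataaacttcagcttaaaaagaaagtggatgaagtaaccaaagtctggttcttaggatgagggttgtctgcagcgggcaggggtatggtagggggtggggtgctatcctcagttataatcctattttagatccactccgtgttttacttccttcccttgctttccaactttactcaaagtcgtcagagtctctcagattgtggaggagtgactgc
The Lamb1 window had 63.7% GC and 18 CpG dinucleotides, while that of Lamb2 had 44% and 4 and held neither motif. The GC content was 74% for Col4a1 and 73.7% for Col4a2, with 37 and 33 CpG dinucleotides, against medians of 52.7% and 7 over 32851 RefSeq promoter windows. A window was listed for 7 of the 10 genes, and not for Lama4, Lamc1 or Nid2. On either strand, GGGCGG was found in 6 of these 7 windows (35.7% of all windows) and CCAAT in 4 (37.4% of all). The only GGGCGG of Col4a1 lies in the 78 bases shared with Col4a2, so that site counts for both windows. Neither TATAAA (13.6% of all), nor the nuclear receptor half-site AGGTCA (16.3%), nor its direct repeat with 1 base between the copies (0.0396%) was found in these 7 windows, which says only that these letters are not in them.

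Of the laminin alpha chains among the 10 genes, Lama4 rose over the days, and Lama2, at a low level, fell to day 2. Lama5, which is not among the 10, held 76.2% of the alpha chain signal per exon length at day 0 and 78.2% at day 2. Lama4, on chr10:38965515-39110188, encodes the alpha chain of the laminins of fat, muscle and vessel walls. At day 0 it had 0 or 1 count per library, 3 counts in all 12 libraries together. At day 2 it had 10 to 134 counts, with a lowest, median and highest level of 0.551, 3.22 and 7.74 CPM, and at day 6 it had 1141 to 2769 counts, at 63.5, 101 and 129 CPM. The 3 days did not overlap. Against a floor of 3 counts per library at day 0, the median level was at least 13.2-fold higher at day 2 and at least 414-fold higher at day 6. From day 2 to day 6 it increased by 5.02 ± 0.29 on the log2 scale (SE, 12 libraries a day), or 32.4-fold.

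Lama2, on chr10:26980036-27619758 and best known as the alpha chain of skeletal muscle and nerve basement membranes, took the other course at a low level. It had 1.27, 1.68 and 5.54 CPM (lowest, median, highest) at day 0, 0 to 1.22 CPM with a median of 0.476 at day 2, and 0.172, 0.656 and 2.26 CPM at day 6. These are 19 to 118, 0 to 22 and 3 to 47 counts. Every library of day 2 lay below every library of day 0, and the fitted change was -1.91 ± 0.29 on the log2 scale (3.75-fold lower). Day 6 overlapped both earlier days.

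Among the beta chains, Lamb1 and Lamb2, which take the same place in the trimer, moved in opposite directions. Lamb1 (chr12:31265234-31329644) had 77.2, 163 and 213 CPM at day 0. Its level was 218, 359 and 542 CPM by day 2, then 175, 415 and 608 CPM by day 6. All libraries of day 2 were above all of day 0, by 1.33 ± 0.22 on the log2 scale (SE), whereas day 6 overlapped day 0 through its lowest libraries. Lamb2 (chr9:108479736-108490530), the beta chain of synaptic and glomerular laminins, had 106, 136 and 236 CPM at day 0 but 23.8, 37.4 and 64.6 at day 2, with no overlap, a change of -1.93 ± 0.20 (3.82-fold lower). It stood between those levels at day 6, at 37.2, 58.2 and 116 CPM. Lamc1 (chr1:153218922-153332786), the gamma chain of most laminins, had 58.8, 137 and 219 CPM before induction. On day 2 these were 134, 308 and 543 CPM, followed by 76.4, 219 and 433 CPM on day 6. Its change from day 0 to day 2 was 1.21 ± 0.27, and all 3 days overlapped.

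The type IV collagens had their peak at day 2. Col4a1 had 313, 540 and 610 CPM at day 0, then 1283, 2611 and 4274 CPM on day 2, followed by 728, 1315 and 2308 CPM on day 6. Both later days lay wholly above day 0, with changes of 2.36 ± 0.22 (5.13-fold) to day 2 and 1.47 ± 0.21 (2.77-fold) to day 6 on the log2 scale. Col4a2 had 80.5, 160 and 247 CPM before induction, then 292, 688 and 1467 CPM on day 2, and 129, 414 and 815 CPM by the end. Its increase to day 2 was 2.10 ± 0.32 with no overlap, and its level at day 6 overlapped that of day 0.

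The nidogens bind laminin gamma chains and type IV collagen. Nid1 (chr13:13437551-13512269) had 61.1, 120 and 144 CPM at day 0, then 114, 182 and 290 CPM on day 2 and 105, 211 and 397 CPM on day 6, and its 3 days overlapped. Nid2 (chr14:19751265-19811787) was far lower and had its trough at day 2, with 3.41, 7.49 and 23.4 CPM, then 1.73, 3.92 and 6.92, then 5.72, 18.6 and 47.4. The change from day 2 to day 6 was 2.51 ± 0.26 for Nid2 and 0.32 ± 0.21 for Nid1. Hspg2 (chr4:137468769-137570630), whose product carries heparan sulfate chains, likewise had its lowest median at day 2, with 53.1, 83.4 and 116 CPM at day 0, then 33.6, 45.9 and 132 CPM, and at last 59.97, 110 and 214 CPM. Neither Nid2 nor Hspg2 had a pair of days without overlap. Of the counted exon bases, 8.45% of Nid2 are shared with Rtraf and 2.06% of Nid1 with Gm48682, and reads were counted without regard to strand, so these values are uncertain to that extent. The shares were 0.982% for Col4a2 and 0.295% for Col4a1, and 0 for the beta chains, Lamc1, Lama4 and Hspg2.

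**Figure D1:**
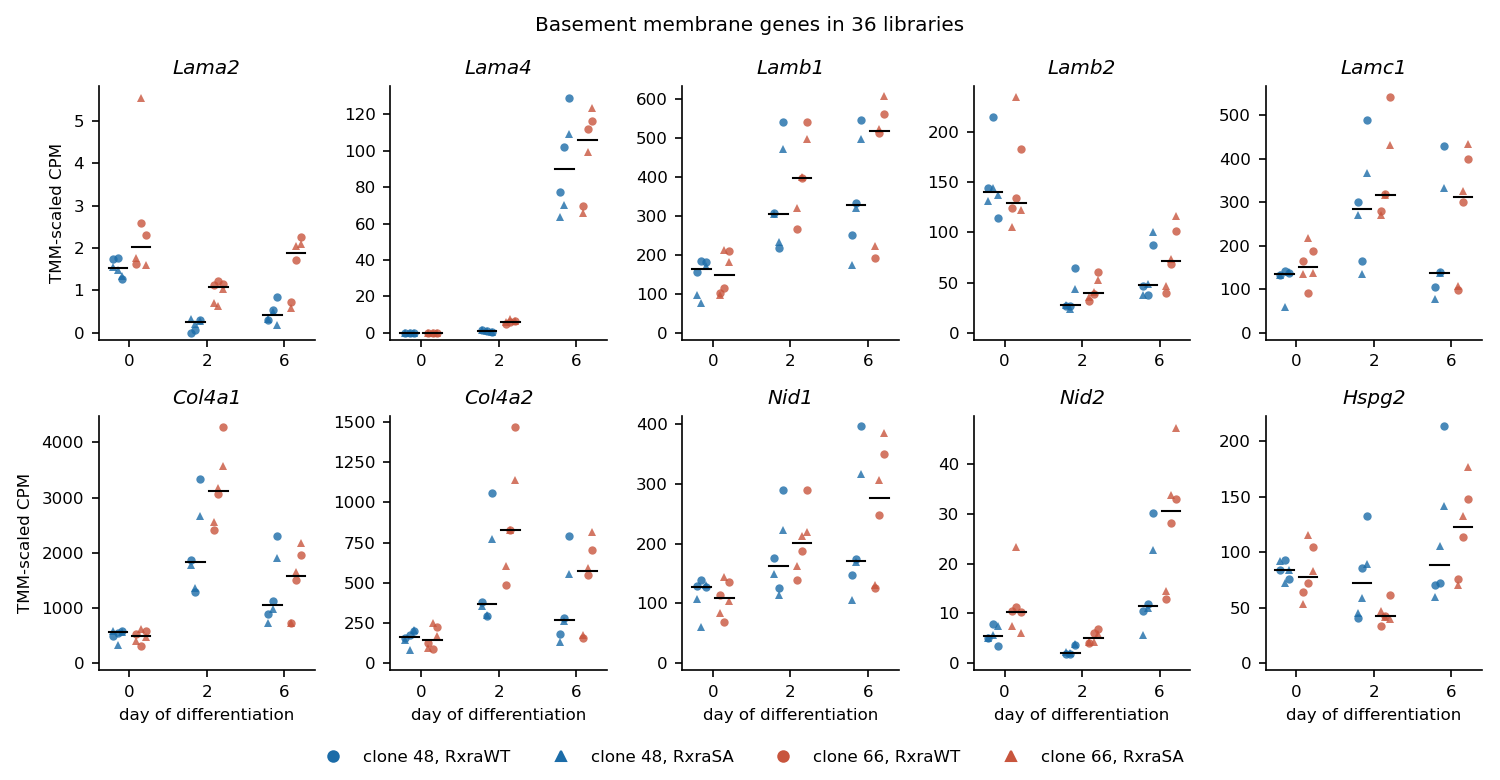
Level of each gene (TMM-scaled CPM, linear axis from 0) in all 36 libraries at day 0, 2 and 6; circles are RxraWT, triangles RxraSA, blue clone 48 and red clone 66, and black bars are medians of 6 libraries. Lama4 lies at or near 0 at day 0 and between 63.5 and 129 CPM at day 6, Lamb2 is lower and Lamb1 higher after day 0, and the type IV collagens are highest at day 2.

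Counted together, day 2 lay wholly above day 0 for 4 of the 10 genes (Lama4, Lamb1, Col4a1 and Col4a2), as for 13.6% of all tested genes, and wholly below for 2 (Lama2 and Lamb2), as for 14.2%. Day 6 lay wholly above day 0 for 2 (Lama4 and Col4a1), as for 12.2% of all genes, and wholly below for 0 (11.0%). Day 6 lay wholly above day 2 for Lama4 alone (9.56% of all genes) and wholly below for 0 (7.56%). Nothing is read from these counts, since the day course chose the genes. Leaving out any replicate number of a clone, or the day 0 libraries that stood apart, changed the sign of none of the changes between days compared. The changes of Lama4 from day 0 were not compared in this way. No setting left out a replicate number of both clones at once. The mural markers, whose summed medians were 199, 52.9 and 110 CPM at day 0, 2 and 6, moved over the days in the same order as Lamb2 and Lama2, and their part in these changes was not tested.

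The clones followed the same order of days for most of these genes. From day 0 to day 2, Lamc1 was 2.32-fold higher in clone 48 and 2.31-fold in clone 66, and Lamb1 2.45-fold and 2.65-fold. Lamb2 was 4.17-fold and 3.49-fold lower, and Nid2 2.28-fold and 2.20-fold lower. The type IV collagens were 3.97-fold and 6.59-fold higher for Col4a1 and 3.28-fold and 5.68-fold for Col4a2, a difference between the clones that did not pass (0.73 ± 0.42 on the log2 scale for Col4a1, edgeR, adjusted p = 0.386, and 0.79 ± 0.63 for Col4a2, adjusted p = 0.581). Hspg2 was 1.12-fold lower in clone 48 and 1.86-fold lower in clone 66 (-0.73 ± 0.42, adjusted p = 0.38).

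Levels of different genes were compared as CPM per kilobase of counted exon. Col4a1 ranked highest of the 10 on each day, with medians of 72.4, 350 and 176 CPM per kilobase at day 0, 2 and 6, and Col4a2 was second with 24.2, 104 and 62.5. At day 0 the next genes, Lamb2 at 22.3, Nid1 at 17.3, Lamc1 at 16.6 and Lamb1 at 16.4, had overlapping ranges, although Lamb2 was above Nid1 in 12 of 12 libraries. Col4a2 was above Lamb2 in 5 of 12 libraries at day 0, so these neighbours did not separate. Lama4 ranked 10th at day 0, 9th at day 2 (0.266) and 7th at day 6 (8.34), where it did not separate from Hspg2 (7.65), being above it in 6 of 12 libraries. Lamb1, Nid1 and Lamc1, at 41.9, 30.4 and 26.5, had overlapping ranges at day 6, although Lamb1 was above Nid1, and Nid1 above Lamc1, in 11 of 12 libraries.

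As a share of all laminin alpha chain signal per length, Lama4 made up 0.204% ± 0.381 (SD, n = 12) at day 0, 19.2% ± 8.80 at day 2 and 70.7% ± 7.20 at day 6. Lama5, the alpha chain of many mature basement membranes and not 1 of the 10 genes, held most of the rest, with 76.2% ± 8.85, 78.2% ± 9.49 and 28.7% ± 7.10. The share of Lama2 was 16.4% ± 3.25 at day 0 and 0.513% ± 0.297 at day 6. The sum of alpha chain signal was small throughout. It averaged 0.732 CPM per kilobase at day 0, 1.44 at day 2 and 11.4 at day 6, beside 39.6, 44.5 and 54.6 for the beta chains. Lamb1 made up 37.6% ± 7.05 of the beta chain signal at day 0, 84.9% ± 1.41 at day 2 and 71.9% ± 5.07 at day 6, while Lamb2 went from 62.4% ± 7.03 to 14.5% ± 1.41 and 20.2% ± 3.10. Within type IV collagen, Col4a1 and Col4a2 together stood beside a sizeable share of Col4a5 (35.8% ± 5.70) and Col4a6 (10.2% ± 2.27) at day 0, and the share of Col4a1 went from 39.8% ± 3.15 to 73.8% ± 2.36 and 67.1% ± 1.98. These shares do not depend on how libraries are scaled.

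**Figure D2:**
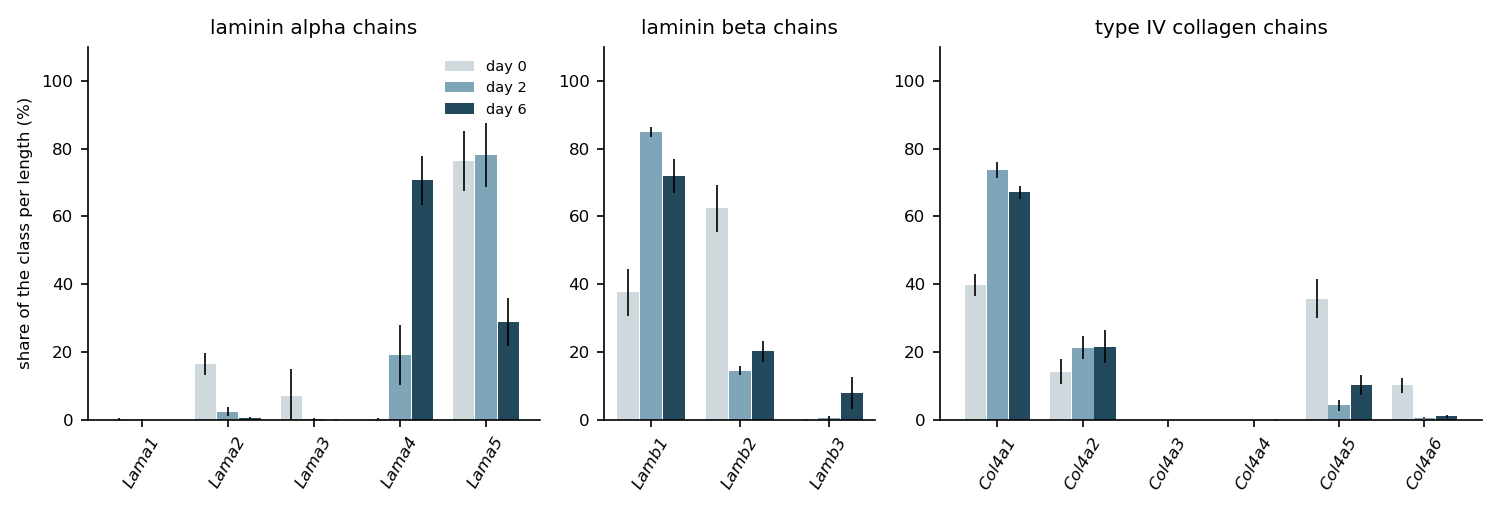
Share of each chain in the length-corrected signal of its class (%, y axis) at day 0, 2 and 6; bars are means of 12 libraries and error bars 1 SD, clipped at 0. The alpha chain share of Lama4 reaches 70.7% at day 6, Lamb1 replaces Lamb2 as the larger beta chain from day 2, and Col4a5 and Col4a6 take a smaller share after day 0.

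Col4a1 and Col4a2 moved together over the days. Over the 36 libraries the ratio of Col4a1 to Col4a2 per length ran from 2.19 to 5.02 with a median of 3.19, so that it spanned 2.29-fold while Col4a1 itself spanned 13.6-fold and Col4a2 18.2-fold. Within a day the contrast was small, since the ratio spanned 1.74-fold, 1.71-fold and 2.12-fold at day 0, 2 and 6 where Col4a1 spanned 1.95-fold, 3.33-fold and 3.17-fold. The ratio of Nid1 to Lamc1 ran from 0.592 to 1.68 over all libraries and spanned 1.68-fold, 1.70-fold and 1.70-fold within the days, no wider than that of the collagens. Over all libraries Lamb1 to Lamc1 ran from 0.514 to 2.00 and Nid1 to Nid2 from 4.52 to 72.1. Of 9717 genes ranked by likeness to Col4a1, as the root mean square difference of centred log2 means over the 12 groups of clone, genotype and day, Col4a2 was at rank 2 (0.162). The genes outside the set most like Col4a1 were Osbpl11 (0.149), Errfi1 (0.165), Tapt1 (0.170) and 1190002N15Rik (0.183), and Lamb1 and Lamc1 stood at ranks 362 and 469. For Lama4 they were Klf15 (0.738), Gm10851 (0.768), 9330159F19Rik (0.800) and Slc36a2 (0.854), and for Lama2 they were Prkar1b (0.285), Mrc2 (0.336), Cpt1c (0.341) and Tcaf1 (0.368). Lamb2 was the member most like Lama2, at rank 195.

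**Figure D3:**
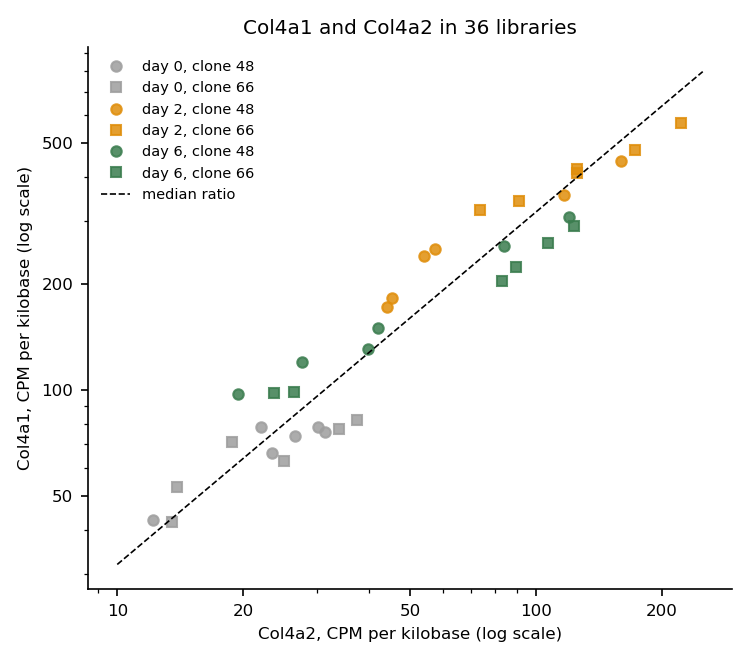
Col4a1 against Col4a2 in CPM per kilobase (both axes logarithmic) for the 36 libraries, coloured by day, with circles for clone 48 and squares for clone 66; the dashed line is the median ratio of 3.19. All libraries lie within a ratio of 2.19 to 5.02.

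Genotype made no detectable difference to any of the 10 genes. With edgeR's quasi-likelihood test adjusted over all 16723 genes, 0 of 10 were called between RxraSA and RxraWT at day 0, day 2 or day 6, and 0 had an unadjusted p under 0.05. The share of all genes called was 0.0% on each day, with 139, 162 and 125 genes at an unadjusted p under 0.05. DESeq2 also called 0 of the 10, as did the fits with the replicate number as a block. The reported tests and standard errors leave out the pairing of same-numbered libraries. With the replicate number as a block within each day, edgeR gave 704, 692 and 477 genes at an unadjusted p under 0.05 and called 0, 1 and 0. Leaving out Lama4 at day 0, the differences ran from -0.21 to 0.20 on the log2 scale at day 0, -0.29 to 0.16 at day 2 and -0.24 to 0.15 at day 6, with standard errors of 0.277 to 0.474, and the lowest adjusted p was 1. For Lama4 at day 6 the mean was 88.5 CPM in RxraSA and 101 in RxraWT (log2 difference -0.24 ± 0.33), and for Col4a1 it was 1363 and 1419 CPM (-0.07 ± 0.29). The change over days did not differ detectably by genotype either, with 0 of 10 called for each pair of days (0.0% of all genes), 0 of 10 at an unadjusted p under 0.05, and 144, 128 and 153 of all genes at that level.

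Within same-numbered pairs, Lamc1 at day 2 was lower in RxraSA in 6 of 6 pairs, with ratios of 0.751 to 0.991, the only case of 1 direction in all 6 pairs among the genes and days with a ratio in each pair, which leaves out Lama4 at day 0 and Lama2 at day 2. This was seen in the values and has no test of its own. The share of all genes with 1 direction in all 6 pairs was not counted, so nothing is read from this case. RxraSA against RxraWT at day 6 gave ratios of 0.814 to 1.11 for Col4a1, 0.726 to 1.11 for Lamc1 and 0.688 to 1.06 for Lama4. The direction, looked at after the values were seen, differed by clone for 6 of the 10 genes at day 6 (Lamb1, Lamc1, Col4a1, Col4a2, Nid1 and Nid2), which were lower in RxraSA in 3 of 3 pairs of clone 48 and higher in 3 of 3 pairs of clone 66. That pattern was held by 4.06% of all genes at day 6, and by 0 of the 10 genes at day 0 (1.82% of all) and day 2 (1.6%). The test of the interaction of clone and genotype left out this pairing. It called 0 of 10 on each day (0.0% of all genes, edgeR and DESeq2 alike). Of all genes, 283, 214 and 200 had an unadjusted p under 0.05. The differences for the 10 genes were 0.07 to 0.78 on the log2 scale at day 6. With the replicate number as a block within each day, edgeR gave 3083, 648 and 1235 genes at an unadjusted p under 0.05. That fit called 4, 1 and 3 of all genes and 0 of the 10. In the same pairs the share of counts on the mitochondrial genome was lower in RxraSA in 3 of 3 pairs of clone 48 and higher in 2 of 3 pairs of clone 66, and its part in the pattern was not tested.

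Between the clones, Lama4 differed at day 2 and not detectably at day 6. At day 2 it was higher in clone 66 than in clone 48, at 4.87, 6.15 and 7.74 CPM (lowest, median, highest of 6 libraries, 87 to 134 counts) against 0.551, 0.831 and 1.56 CPM (10 to 24 counts). The clones did not overlap, and the difference was 2.64 ± 0.26 on the log2 scale, or 6.25-fold (edgeR, adjusted p = 1.84e-08). At day 6 the clones overlapped, at 63.5, 89.8 and 129 CPM in clone 48 and 65.6, 106 and 123 CPM in clone 66, with a difference of 0.10 ± 0.20 (adjusted p = 0.769). The change from day 2 to day 6 accordingly differed by -2.55 ± 0.33 (adjusted p = 1.29e-05), being 92.5-fold in clone 48 and 15.8-fold in clone 66. It was called in each of 18 alternatives, at -3.15 to -2.04, and the difference at day 2 in each of 17, at 2.38 to 3.10. At day 2 the adipocyte markers summed to 4436 to 5895 CPM in clone 48 and 3291 to 4217 in clone 66, and the brown adipocyte markers to 67.9 to 101 and 17.1 to 20.5, the opposite order to Lama4. Mural markers summed to 26.8 to 67.1 CPM in clone 48 and 50.3 to 81.0 in clone 66. The part of these in the difference was not tested.

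Lama2 was also higher in clone 66. At day 2 it had 11 to 22 counts per library in clone 66 and 0 to 5 in clone 48, with means of 0.975 and 0.197 CPM (2.32 ± 0.50 on the log2 scale, edgeR, adjusted p = 0.00061). At day 6 the means were 1.57 and 0.447 CPM (1.85 ± 0.39, adjusted p = 0.000633), whereas at day 0 the difference of 0.74 ± 0.31 did not pass (adjusted p = 0.0869), though it did without clone 66 replicate 1 (0.95, adjusted p = 0.017). Without the RxraSA library of clone 66 replicate 2 at day 0 it was 0.31 (adjusted p = 0.515). The difference between the clones in its change from day 0 to day 2 was 1.57 ± 0.60 (adjusted p = 0.129). With the replicate number as a block it was 1.62 (adjusted p = 0.0482), and without the RxraSA library of clone 66 replicate 2 at day 0 it was 2.01 (adjusted p = 0.0174). Of its counted exon bases 3.86% are shared with Gm48084, and at these depths the values rest on few reads.

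Nid2 was higher in clone 66 at day 0 (means of 11.5 and 5.77 CPM, 0.99 ± 0.36, edgeR, adjusted p = 0.0479) and at day 2 (5.204 and 2.52 CPM, 1.04 ± 0.39, adjusted p = 0.0454), and at day 6 it did not pass (28.3 and 15.3 CPM, 0.89 ± 0.35, adjusted p = 0.0622). The call at day 0 rested on the RxraSA library of clone 66 replicate 2, without which the difference was 0.53 (adjusted p = 0.323). It was also lost with a filter of 1 CPM, without any 1 of the replicates of clone 48 and without the RxraSA library of clone 48 replicate 1 (0.93, adjusted p = 0.0973). The call at day 2 was lost without replicate 1 or 2 of clone 48 or replicate 2 or 3 of clone 66, at 0.87 to 1.05 with adjusted p values of 0.079 to 0.203, and with library size alone (adjusted p = 0.0543). At day 6 Nid2 passed without clone 48 replicate 3 (1.55, adjusted p = 0.00197), without clone 66 replicate 1 (1.23, adjusted p = 0.0123), without the day 0 library of clone 66 named above (0.88, adjusted p = 0.0441), with DESeq2 and with no filter on low counts. Hspg2 was the only one of the 10 with a lower mean in clone 66 at day 2 (44.3 and 75.2 CPM, -0.75 ± 0.30), which did not pass (adjusted p = 0.0568). It passed without clone 48 replicate 1 (-1.04, adjusted p = 0.00807), with library size alone, with no filter on low counts and with DESeq2, at adjusted p values of 0.00996 to 0.0432. Without clone 48 replicate 3 it was -0.35 (adjusted p = 0.353).

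In all, 1, 3 and 1 of the 10 genes were called between the clones at day 0, 2 and 6, where 23.7%, 30.0% and 26.2% of all genes were called. For the change over days 0 were called from day 0 to day 2 (2 at an unadjusted p under 0.05, 6.84% of all genes called), 0 from day 0 to day 6 (1 at an unadjusted p under 0.05, 3.85% of all) and 1, Lama4, from day 2 to day 6 (6.18% of all). DESeq2 called 1 from day 0 to day 2, which was Lama4, a value that rests on almost no counts at day 0. Replicate 3 of clone 48 decided several counts. Without it, 6 were called at day 2 (Lama2, Lama4, Nid2, Col4a1, Col4a2 and Lamb2) and 6 at day 6 (Lama2, Nid2, Col4a2, Lamb2, Lamc1 and Nid1), all higher in clone 66. Over all genes that setting called 5144 at day 2 and 5120 at day 6, beside 5011 and 4382 with every library.

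**Figure D4:**
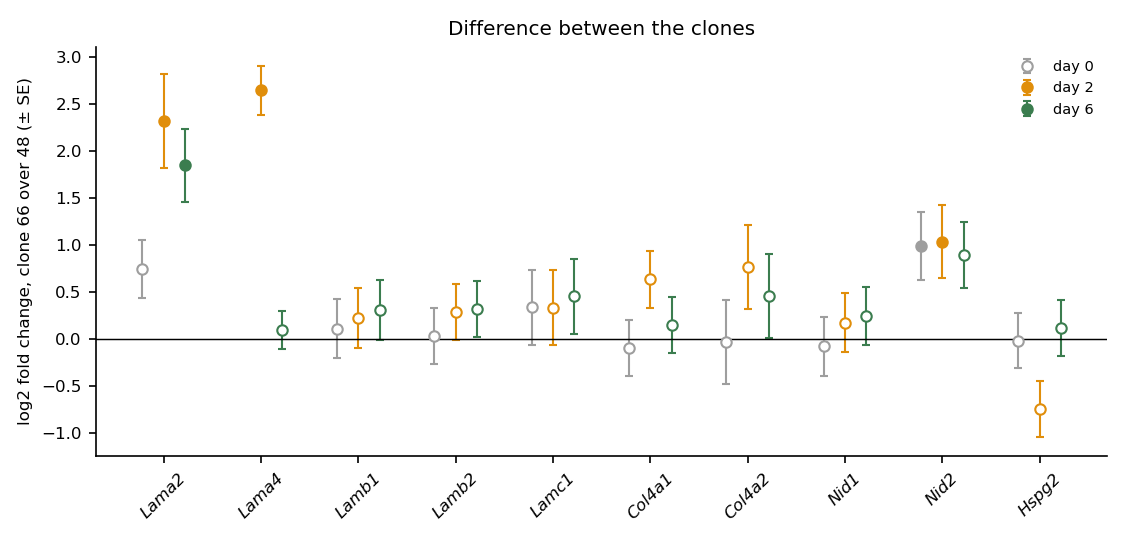
Difference between the clones (log2 fold change of clone 66 over clone 48, points, with SE bars) for each gene at day 0, 2 and 6; filled points had an adjusted p under 0.05 and Lama4 at day 0 is not drawn. Lama4 at day 2 is the highest, at 2.64, and lies at 0.10 at day 6.

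Libraries with the same replicate number varied together in these genes. At day 6, replicate 3 was the highest of its cell line in all 4 lines for 9 of the 10 genes, as for 14.9% of all genes, at day 2 for 7 (15.5%) and at day 0 for 0 (10.8%). This was seen in the values and was not tested. For Col4a2 the ratio of replicate 3 to replicate 1 at day 6 was 4.32 to 4.66 over the 4 lines, for Lamc1 3.995 to 4.35 and for Col4a1 2.58 to 2.97. It was 2.68 to 3.02 for Nid1 and 1.66 to 1.88 for Lama4, the gene with the smallest spread between replicates (SD of 0.39 on the log2 scale, against 0.86 for Col4a2). Lama2 was the exception, at 0.515 to 3.62. In the same libraries the mural markers had a ratio of 2.33 to 2.88, the share of counts on the mitochondrial genome 2.12 to 3.86, the pre-adipocyte markers 1.33 to 1.63, the adipocyte markers 0.798 to 0.892 and the total count 1.01 to 1.19. Their part in the spread of these genes was not tested.

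**Figure D5:**
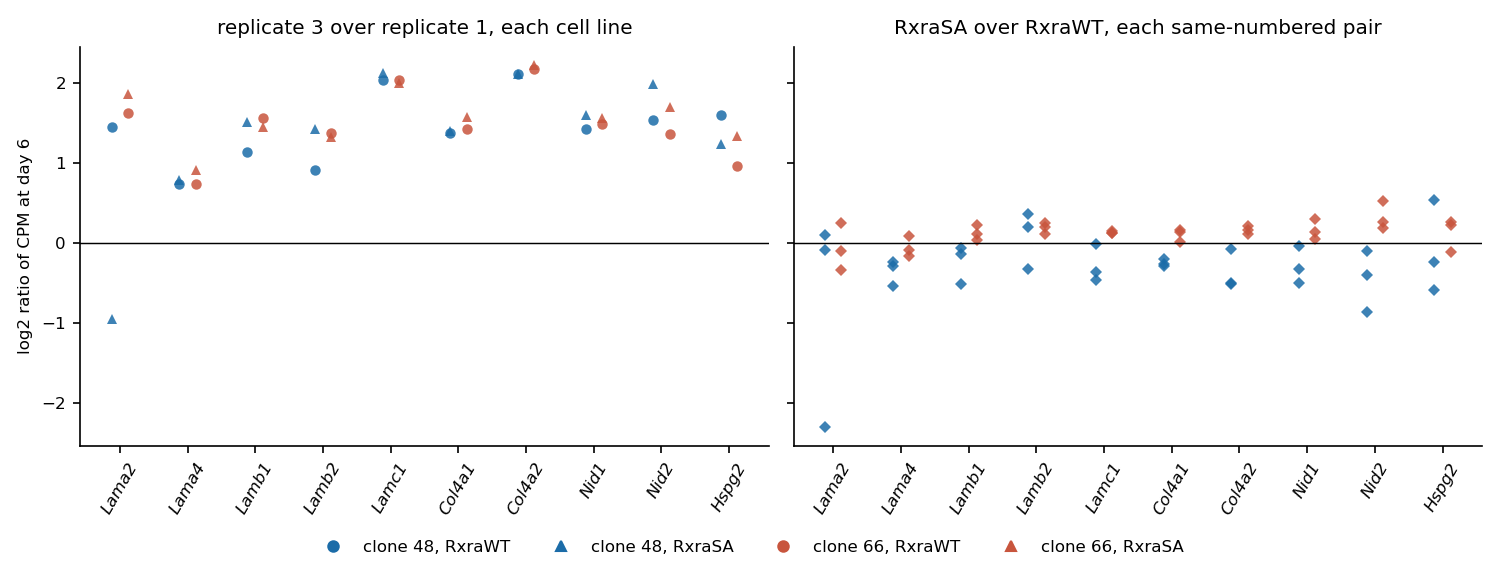
Log2 ratio of CPM at day 6 for replicate 3 over replicate 1 in each of the 4 cell lines (left; circles RxraWT, triangles RxraSA) and for RxraSA over RxraWT in each of the 6 same-numbered pairs (right, diamonds), with blue for clone 48 and red for clone 66. Apart from Lama2, replicate 3 lies above replicate 1 in all 4 lines for every gene, while the genotype ratios lie on both sides of 0.

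Other chains of the same families were tested over the days, since the choice did not name them. Of 16723 genes, 35.8% rose and 37.5% fell from day 0 to day 2, 32.9% rose and 35.4% fell from day 0 to day 6, and 31.9% rose and 30.1% fell from day 2 to day 6. Between day 0 and day 6 Lamb3, the beta chain of epithelial laminin, rose from a median of 0.108 to 21.5 CPM (7.60 ± 0.28 on the log2 scale, edgeR, adjusted p = 1.34e-22), and Lama5 from 5.98 to 31.6 CPM (2.62 ± 0.27, adjusted p = 2.06e-10). Lama3 fell from 0.439 CPM to a median of 0 (adjusted p = 6.8e-10), and Lama1 and Lamc3 had at most 1 and 10 counts. At day 0 the Lama3 signal was mostly that of clone 66, where it made up a mean of 13.8% of the alpha chain signal, against 0.311% in clone 48. Of the 4 other type IV collagen chains 1 rose and 2 fell to day 2 and likewise up to day 6, and 1 rose between day 2 and day 6. Col4a5 fell from 400 to 162 CPM (-1.22 ± 0.13, adjusted p = 5.01e-10) and Col4a6 from 125 to 18.5 CPM (-2.79 ± 0.12, adjusted p = 8.5e-21), and these X-linked neighbours fell over the days on which Col4a1 and Col4a2 were higher. Col4a4 rose at a low level (1.37, adjusted p = 3.95e-06) and Col4a3 did not pass (0.17, adjusted p = 0.403).

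Other basement membrane components rose mostly after day 2. Of 14 tested of 21, 2 rose and 8 fell from day 0 to day 2, 7 rose and 4 fell up to day 6, and 13 rose and 1 fell from day 2 to day 6, with a median log2 change of 2.11 beside 0.01 over all genes. Col15a1, a collagen of the zone next to the basement membrane, rose from 1.84 to 328 CPM between day 0 and day 6 (7.60 ± 0.47, edgeR, adjusted p = 2.49e-16). On the log2 scale Smoc1 rose by 6.04, and Ntn4 and Tinagl1 fell by 3.62 and 2.00. For assembly and processing of type IV collagen, 3 of 17 tested genes rose and 11 fell from day 0 to day 2. Up to day 6, 7 rose and 7 fell, beside 32.9% and 35.4% of all genes, so nothing is read from that count. Between day 2 and day 6, 10 rose and 4 fell. Plod2, a lysyl hydroxylase, and P4ha2, a prolyl 4-hydroxylase subunit, rose by 2.28 and 2.15 up to day 6, while P3h2, a prolyl 3-hydroxylase, and the chaperone Fkbp10 fell by 3.61 and 1.65.

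Of 18 receptors for laminin and collagen tested, 6 rose and 8 fell from day 0 to day 2, beside 35.8% and 37.5% of all genes. Up to day 6 these were 7 and 7, beside 32.9% and 35.4%. Both counts lie near the shares of all genes, so nothing is read from them. Between day 2 and day 6, 11 rose and 4 fell, beside 31.9% and 30.1% of all genes. The receptors named here, the laminin-binding integrins Itga6, Itga7 and Itga3 and the kinase Ddr2, were picked for the largest rises and falls. Their opposite directions therefore follow from how they were picked. Itga6 rose from 2.57 to 194 CPM (6.61 on the log2 scale) and Itga7 from 1.36 to 62.3 CPM (5.39), whereas Itga3 fell by 2.38 and the collagen receptor kinase Ddr2 by 1.77. The proteases of basement membranes and their inhibitors fell in 15 of 16 tested from day 0 to day 2 and in 15 of 16 from day 0 to day 6, with a median of -2.45 beside -0.03 over all genes for the latter, while 10 rose and 4 fell between day 2 and day 6. Plat, tissue plasminogen activator, fell from 145 to 4.31 CPM (-5.05) and Timp2, a metalloprotease inhibitor, from 202 to 9.68 CPM (-4.04), while Ctsb, a lysosomal protease, rose from 411 to 712 CPM (0.78).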

How the data were processed

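Total RNA libraries (TruSeq Stranded Total RNA, Illumina NextSeq) gave 1 table of raw read counts per gene and library. The authors made these with STAR 2.7.0d on GRCm38/mm10 and featureCounts 1.6.2 on GENCODE M21 with no strand option. Reads on exon bases that antisense or overlapping genes share were therefore not assigned by strand. The deposited counts of 36 libraries were joined, IDs were paired with GENCODE M21 symbols, and 16723 genes passed edgeR's filterByExpr. Levels are CPM scaled by TMM. Tests used edgeR 4.0.16 (R 4.3.3, quasi-likelihood, legacy form) on all 36 libraries, adjusted by Benjamini-Hochberg over all tested genes with a threshold of 0.05. Genotype and time used genotype and day plus clone, as in the authors' model, and clone contrasts used groups of clone, genotype and day. DESeq2 1.42.0 was an alternative. A gene at 0 to 3 counts was compared with a floor of 3 counts per library. Values after ± are approximate standard errors, or SDs where so marked. The standard errors were worked out from the edgeR test, as the absolute log2 fold change over the square root of F. They include the spread between libraries. Code was tested on simulated data.

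Same-numbered libraries of the genotypes deviated together in each of 18 pairs (correlation 0.176 to 0.930 over 9381 genes). Fits with the replicate number as a block were therefore run as alternatives, and the reported tests had no replicate term. No 2 replicates agreed within sampling noise (lowest chi-square per degree of freedom 13.5 over 36 pairs). All 10 genes are named, and from each other list at most 4 genes, those with the largest rise and fall from day 0 to day 6 among called genes whose average log2 CPM reached 2, besides other laminin and type IV collagen chains, of which 1 result is not reported here. Likeness was ranked over genes whose average log2 CPM reached 3. The genes, lists and tests were chosen with earlier results of these data known. The authors' edgeR 3.24.3 output was not used.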

Additional observations from a re-analysis of the deposited data

Results flagged for a closer look

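In 7 of 60 groups of 6 libraries (a gene, genotype and day), 1 library lay far from the others by Dixon's criterion. Chance meets it in about 1 in 20 groups of like libraries. These groups pool both clones and the share over all genes was not counted, so that rate need not hold here. 5 of the 7 were replicate 2 of clone 66 at day 0. Its RxraSA library was the highest of its group for Lama2 (5.54 CPM, next 1.75), Lamb2 (236, next 145) and Nid2 (23.4, next 7.52), and its RxraWT library the lowest for Col4a1 (313, next 492) and Nid1 (67.9, next 113). The share of counts on the mitochondrial genome was 3.78% and 1.61% in these libraries and the mural markers summed to 386 and 188 CPM, whose part was not tested. Hspg2 was highest in the RxraSA library of clone 48 replicate 3 at day 2 (89.1, next 58.2). Lama4 in RxraWT at day 0 was above 0 only in clone 48 replicate 1, at 0.0494 CPM, which is 1 count.

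The change of Lama4 from day 2 to day 6 differed between the clones by -2.55 on the log2 scale, by the test of the interaction.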

How the results depend on the processing

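Beside the reported setting 21 others were tried (scaling, filters on low counts, the test, DESeq2, the replicate block, fewer libraries). The settings without the RxraSA library, or without both libraries, of clone 66 replicate 2 at day 0 were chosen after seeing the data. All 532 changes between days computed for the 10 genes under other settings kept their sign and moved by less than the replicate SD. The changes of Lama4 from day 0 are not among them. The SD is that of single libraries, which is a wide bound for a change between days of 12 libraries each. Library size alone shifted the median of all genes by -0.27 (day 2 over day 0) and -0.22 (day 6 over day 0). No setting left out replicate 3 of both clones at once. From day 0 to day 6, Lamc1 fell in replicate 1 of each cell line (133 to 105 and 132 to 76.4 CPM in clone 48, 165 to 97.7 and 136 to 108 in clone 66, RxraWT first). In replicate 3 it rose in each line (138 to 430 and 140 to 332, then 188 to 400 and 137 to 433). No setting called a gene of the 10 for genotype, genotype and time, or clone and genotype. Of the counts between clones, the 1 at day 0 became 0 with 1 CPM in at least 6 libraries, without the RxraSA library of clone 48 replicate 1, without that of clone 66 replicate 2 and without both libraries of that replicate, and 0 to 2 without each replicate. The 3 at day 2 became 5 with no filter and 2 to 6 without each replicate. The 1 at day 6 became 2 with no filter, with DESeq2 and without 1 or both of those clone 66 libraries, and 1 to 6 without each replicate. The 0 for clone and change from day 0 to day 2 became 1 with the replicate block, no filter, DESeq2 and without 1 or both of those libraries, and 0 to 1 without each replicate. Why these moved was not tested.

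With the replicate block no other call among the 10 genes changed, and the clone difference on a day could not be fitted. Over all genes the block raised the calls for clone and time from 1144 to 2248 (day 0 to 2), 644 to 1369 (day 0 to 6) and 1033 to 2082 (day 2 to 6). For genotype, and for clone and genotype, the blocks called at most 4 genes on a day. Without single replicates the clone and time calls fell to as few as 549, 324 and 534. Depth limits Lama2 and day 0 Lama4, where a library holds few or no reads.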
